A study of Mus musculus with 6 samples.

Results

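Heparan sulfate is the sulfated sugar chain of cell surface and matrix proteoglycans, and 10 genes that build it or trim its sulfate groups were followed in mouse podocytes treated with FGF1. They were *Ext1*, *Ext2*, *Ndst1*, *Ndst2*, *Glce*, *Hs2st1*, *Hs6st1*, *Hs6st2*, *Sulf1* and *Sulf2*, chosen by symbol among the 24469 loci of the deposited table. Each symbol was found at 1 locus that carried no other gene name. RNA-Seq was run on 6 libraries in 3 groups of 2, all made from MPCs, a conditionally immortalized podocyte line that differentiates when interferon gamma is withdrawn. Every group was starved for 12 h and then kept in high glucose (HG, 25 mM) for 12 h. The HG group received no FGF1, and the others were given recombinant wild-type human FGF1 (rFGF1WT) or rFGF1ΔHBS, a variant with mutated heparan-sulfate-binding residues, each at 100 ng/mL starting 1 h before HG. The line stands in for podocytes in culture, normal-glucose libraries were not analysed here, and no source used here says whether the 2 libraries of a group came from separate cultures, so p-values measure only the spread between these samples.

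Heparan sulfate chains grow in the Golgi on a tetrasaccharide linker, where the EXT1 and EXT2 polymerase alternates glucuronic acid and N-acetylglucosamine. N-deacetylase/N-sulfotransferases then open the way for the epimerase and for the 2-O-, 6-O- and 3-O-sulfotransferases, and the secreted endosulfatases SULF1 and SULF2 later remove 6-O-sulfate at the cell surface. The resulting pattern governs how FGFs bind the chain and form complexes with their receptors, and in the glomerulus the chains are part of the basement membrane that podocytes lay down. The comparisons asked whether either protein was accompanied by a change in the mRNA of these enzymes and whether the protein that binds heparan sulfate weakly differed from the wild type in this respect.

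None of the 9 tested enzymes changed by the test in any comparison, against 6.19%, 6.26% and 0.549% of all tested loci. For 7 of them (77.8%) the 95% interval of the change lay inside a 2-fold limit. That was near the 79.5%, 79.6% and 82.4% of all tested loci. *Hs6st1*, *Ndst1* and *Ext1* were the most abundant, *Sulf2* was the abundant sulfatase, and *Sulf1* was close to the detection limit. *Sulf2* was 12.0 FPKM in HG and 15.8 and 16.2 FPKM with the proteins, but did not pass the test across all loci. Its values with either protein did not overlap those in HG, as was so for 58.2% and 57.3% of all tested loci. Of the 9 tested enzymes *Ndst1* and *Hs6st2* varied most between libraries, in each case with individual libraries low.

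Levels are given as FPKM, fragment counts scaled by transcript length and library total, so they can be set side by side between genes. The FPKM table holds no read totals, and low values placed the libraries between 0.973 and 1.01 of the depth of the first HG library. Of all loci, 10562 had a mean of at least 1 FPKM and were tested, 9 of the 10 enzymes among them. The ERK response list, known targets of FGF receptor signaling, was set beside the labelled treatment. Of 14 tested members, 7 rose with rFGF1WT and 6 with rFGF1ΔHBS (limma, Benjamini-Hochberg adjusted p under 0.05, which 6.19% and 6.26% of all tested loci passed). The list was chosen with earlier results of these data known, so these counts are not an independent check. *Etv4*, *Etv5* and *Spry4* had HG means of 0.068, 0.53 and 0.058 FPKM. They reached the filter of 1 FPKM only through the treated groups, which favoured a rise in advance. *Ccnd1*, *Dusp5*, *Etv4*, *Etv5*, *Phlda1* and *Spry4* rose with both, and *Spry2* passed with rFGF1WT (adjusted p = 0.0492) but did not differ by the test between the proteins (adjusted p = 0.928). Of these *Etv5*, a transcription factor of this response, measured 0.486 and 0.578 FPKM in HG, 7.72 and 8.31 with rFGF1WT, and 8.23 and 8.42 with rFGF1ΔHBS. Of the podocyte markers, 8 of 12 had a mean of at least 1 FPKM, among them *Podxl* and *Synpo*, whereas the defining gene *Wt1* (at most 0.0731 FPKM) was close to absent. The summed podocyte markers ranged from 406.9 to 418.1 FPKM in HG, 538.8 to 544.8 with rFGF1WT and 517.9 to 541.8 with rFGF1ΔHBS. Most of that difference was *Itga3*, an integrin subunit, which had means of 64.7, 153.5 and 153.1 FPKM and rose with both proteins (adjusted p = 0.00484 and 0.0051 by limma), whereas *Podxl* (17.2, 15.6 and 15.3 FPKM), *Synpo* (9.91, 4.73 and 5.83) and *Lamb2* (36.7, 29.6 and 29.3) had lower means in the treated groups and did not pass. The summed tubule markers, 2 of 5 at or above 1 FPKM on average, ranged from 61.6 to 73.3, 44.1 to 47.6 and 40.5 to 49.7 FPKM. The mesangial sum, in the same order of groups, ranged from 34.1 to 34.9, 29.1 to 30.4 and 29.2 to 30.4, and the endothelial sum from 3.29 to 3.54, 1.17 to 3.0 and 2.92 to 2.98 FPKM. The leukocyte sum ranged from 9.60 to 10.7, 3.22 to 3.71 and 3.78 to 3.95 FPKM and was nearly all *Csf1r*, which fell with both proteins (log2 fold change -1.32 and -1.19, adjusted p = 0.0114 and 0.0140 by limma). All libraries came from the MPC line, so these sums describe marker mRNA in that line and do not count cells of other types. The part of these marker differences in the results was not tested. In such bulk samples fewer cells with a marker and less of its RNA per cell cannot be told apart.

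The mean over the 6 libraries fell from 47.5 FPKM for *Hs6st1* through 36.6 for *Ndst1*, 27.2 for *Ext1*, 20.1 for *Ext2*, 14.7 for *Sulf2*, 13.1 for *Glce*, 10.2 for *Ndst2*, 6.98 for *Hs6st2* and 5.92 for *Hs2st1* to 0.0149 for *Sulf1*. The order therefore put a 6-O-sulfotransferase and an N-deacetylase/N-sulfotransferase ahead of the polymerase. Neighbours whose library ranges overlapped, and whose order is thus unsettled, were *Ndst1* and *Ext1*, *Sulf2* and *Glce*, *Ndst2* and *Hs6st2*, and *Hs6st2* and *Hs2st1*. The other neighbours were separated in all libraries. *Hs6st1* exceeded 93.9% of the tested loci and *Hs2st1* exceeded 39.8%. The spread over all libraries was smallest for *Glce*, with a coefficient of variation of 4.22%, and largest for *Hs6st2*, with 55.4%. Summed over the 10 genes, the level was 187.9 and 183.4 FPKM in HG, 167.0 and 182.6 with rFGF1WT, and 187.5 and 185.3 with rFGF1ΔHBS. Only the first rFGF1WT library stood below the others in this sum, and it was also the library with low *Ndst1*.

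**Figure D1:**
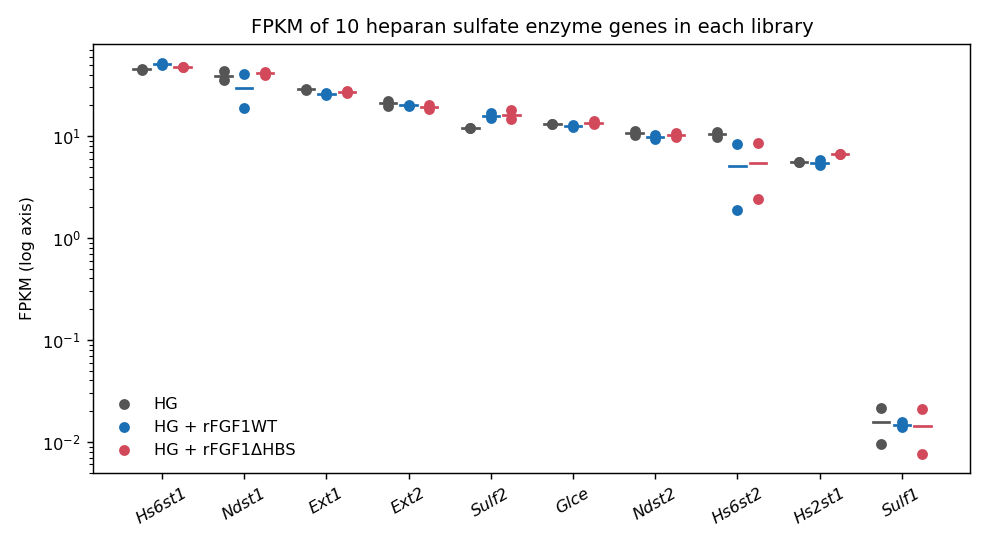
FPKM of the 10 genes on a log axis, ordered by their mean, with a point for each library, a short bar for the mean of 2 libraries and colors for HG, rFGF1WT and rFGF1ΔHBS. *Hs6st1* lies highest, *Sulf1* lies at or below 0.0217 FPKM in every library, and among the other 9 the widest gaps between replicates are those of *Ndst1* with rFGF1WT and of *Hs6st2* with either protein. The *Sulf1* replicates of HG and rFGF1ΔHBS are also far apart on the log axis.

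*Ext1* and *Ext2* encode the subunits of the chain polymerase. *Ext1* (chr15:53064038-53346159, minus strand, GRCm38) measured 28.4 and 29.0 FPKM in HG, 25.4 and 26.2 with rFGF1WT, and 27.6 and 26.4 with rFGF1ΔHBS. HG was thus above both treated groups without overlap, by a small margin. Relative to HG, the log2 fold change of FPKM + 1 was -0.15 with rFGF1WT (95% interval -0.28 to -0.01, unadjusted p = 0.0389, adjusted p = 0.177 by limma) and -0.09 with rFGF1ΔHBS (-0.22 to 0.05, adjusted p = 0.376). *Ext2* (chr2:93661028-93822568, minus strand) measured 19.9 and 22.2 FPKM in HG, 19.7 and 20.2 with rFGF1WT, and 18.3 and 20.1 with rFGF1ΔHBS. These groups overlapped, with log2 fold changes against HG of -0.07 (-0.29 to 0.15) and -0.12 (-0.34 to 0.10). The ratio of *Ext1* to *Ext2* FPKM stayed between 1.29 and 1.51 over the 6 libraries.

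The N-deacetylase/N-sulfotransferases replace acetyl groups of N-acetylglucosamine by sulfate and so set where later enzymes can act. *Ndst1* (chr18:60684494-60748650, minus strand) measured 43.0 and 35.2 FPKM in HG, 18.9 and 40.5 with rFGF1WT, and 39.9 and 42.1 with rFGF1ΔHBS. A single library, the first with rFGF1WT, was low, while the other 5 lay between 35.2 and 43.0 FPKM. The log2 fold change of rFGF1WT against HG was -0.47 (-1.48 to 0.53, adjusted p = 0.494) and became 0.06 without that library, whereas without the second rFGF1WT library it was -1.001. For rFGF1ΔHBS it was 0.07 (-0.93 to 1.08, adjusted p = 0.933). The *Ndst1* locus joins 7 transcripts of which 6 were assembled from the reads and 1 carries an Ensembl identifier, and the part of assembly in the low value was not tested. *Ndst2* (chr14:20723730-20734562, minus strand), known for its role in mast cell heparin, measured 10.1 and 11.2 FPKM in HG, 10.2 and 9.33 with rFGF1WT, and 10.8 and 9.71 with rFGF1ΔHBS. Its groups overlapped, with log2 fold changes against HG of -0.12 (-0.36 to 0.12) and -0.05 (-0.29 to 0.19). *Ndst1* made up 65.1% of the FPKM of the pair in the low library and between 75.8% and 81.3% in the other 5.

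The epimerase and the 2-O-sulfotransferase act in sequence, the former turning glucuronic into iduronic acid and the latter sulfating it. *Glce*, the epimerase gene (chr9:62057248-62122655, minus strand), measured 13.2 and 13.1 FPKM in HG, 12.8 and 12.3 with rFGF1WT, and 14.0 and 13.1 with rFGF1ΔHBS. The rFGF1WT libraries were the lowest of the 6, by less than 1 FPKM from the nearest HG library. Log2 fold changes against HG were -0.06 (-0.22 to 0.10) and 0.04 (-0.12 to 0.20). *Hs2st1*, the 2-O-sulfotransferase gene (chr3:144429706-144570181, minus strand), measured 5.61 and 5.55 FPKM in HG, 5.15 and 5.83 with rFGF1WT, and 6.65 and 6.71 with rFGF1ΔHBS. Both rFGF1ΔHBS libraries lay above the other 4. Its log2 fold change was 0.22 for rFGF1ΔHBS against HG (0.02 to 0.42, unadjusted p = 0.0356, adjusted p = 0.166 by limma) and 0.25 for rFGF1ΔHBS against rFGF1WT (0.05 to 0.45, unadjusted p = 0.0262, adjusted p = 0.905). *Hs2st1* was the member with an unadjusted p under 0.05 between the proteins. Against HG, rFGF1WT gave -0.02 (-0.22 to 0.18), with overlapping libraries and a sign that turned positive under median-ratio scaling and quantile normalization.

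The 6-O-sulfotransferases add the sulfate group that FGF receptor assembly on heparan sulfate is known to need. *Hs6st1* (chr1:36068400-36106446, plus strand) measured 44.6 and 45.4 FPKM in HG, 49.8 and 51.4 with rFGF1WT, and 47.1 and 47.0 with rFGF1ΔHBS. The 3 groups did not overlap, with rFGF1ΔHBS between HG and rFGF1WT. Log2 fold changes were 0.17 for rFGF1WT against HG (0.05 to 0.28, unadjusted p = 0.0163, adjusted p = 0.114 by limma), 0.06 for rFGF1ΔHBS against HG (-0.05 to 0.18, adjusted p = 0.436) and -0.10 between the proteins (-0.22 to 0.02, adjusted p = 0.905). *Hs6st2* (chrX:51387212-51681856, minus strand) measured 10.9 and 9.80 FPKM in HG, 8.35 and 1.86 with rFGF1WT, and 8.49 and 2.42 with rFGF1ΔHBS. All 4 treated libraries lay below HG, and the second library of each treated group was far below the first. Group means were 10.4 ± 0.798 FPKM (SD, n = 2), 5.11 ± 4.59 and 5.46 ± 4.30, and the log2 fold changes against HG were -1.13 (-3.19 to 0.93, adjusted p = 0.432) and -0.99 (-3.06 to 1.07, adjusted p = 0.485). Without the second rFGF1WT library the first of these was -0.28, and without the second rFGF1ΔHBS library the other was -0.26.

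In the libraries where *Hs6st2* was low, *Hs6st1* made up more of the summed 6-O-sulfotransferase FPKM. Its share was 80.3% and 82.2% in HG, 85.6% and 96.5% with rFGF1WT, and 84.7% and 95.1% with rFGF1ΔHBS. The treated libraries were all above HG in this share, which rests on the same values as the levels. The sum of the 2 genes changed less than the share, at 55.6 and 55.1 FPKM in HG, 58.1 and 53.2 with rFGF1WT, and 55.6 and 49.4 with rFGF1ΔHBS.

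**Figure D2:**
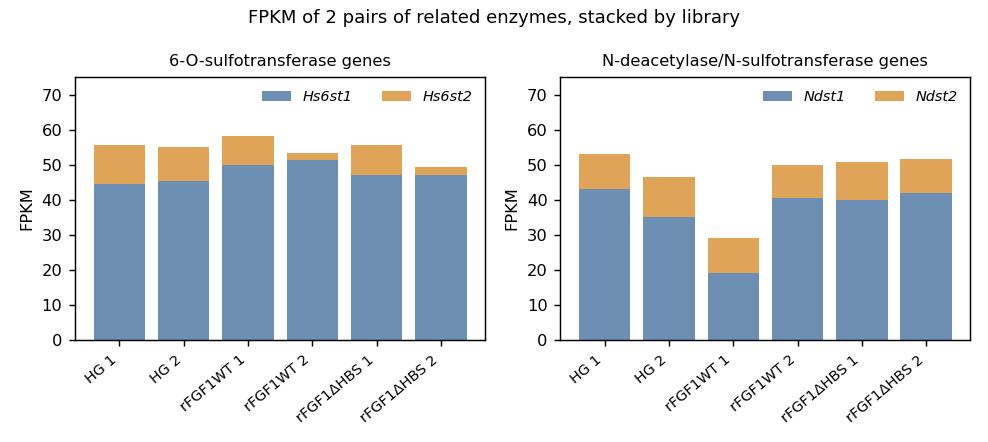
Stacked FPKM of *Hs6st1* and *Hs6st2* (left) and of *Ndst1* and *Ndst2* (right) in each library, 1 bar a library. The second library of each protein has little *Hs6st2*, 1.86 and 2.42 FPKM, and the first rFGF1WT library has the lowest *Ndst1*, 18.9 FPKM.

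SULF1 and SULF2 edit finished chains by removing 6-O-sulfate. *Sulf2* (chr2:166073089-166155663, minus strand) measured 12.0 and 12.0 FPKM in HG, 16.6 and 14.9 with rFGF1WT, and 14.6 and 17.8 with rFGF1ΔHBS. All 4 treated libraries exceeded HG. Group means were 12.0 ± 0.0254 FPKM (SD, n = 2), 15.8 ± 1.21 and 16.2 ± 2.23. The log2 fold change was 0.37 with rFGF1WT (0.06 to 0.67, unadjusted p = 0.0276, adjusted p = 0.150 by limma) and 0.40 with rFGF1ΔHBS (0.10 to 0.70, unadjusted p = 0.0207, adjusted p = 0.126). Between the proteins it was 0.03 (-0.27 to 0.34). *Sulf1* (chr1:12692277-12861192, plus strand) measured 0.00951 and 0.0217 FPKM in HG, 0.0139 and 0.0156 with rFGF1WT, and 0.0209 and 0.00768 with rFGF1ΔHBS, and was not tested. *Sulf2* therefore supplied nearly all sulfatase mRNA in each group. On the opposite strand, *Sulf2* overlaps *Ncoa3* and *Hs6st1* overlaps *Gm37335*, and on its own strand *Glce* overlaps the microRNA gene *Mir5133*. Whether counting used strand is not given in the sources used here, so reads of these overlaps cannot be told apart.

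To show the start regions of the member with the highest level and of the sulfatase, the 250 bases upstream of their RefSeq starts (GRCm38.p6, 5′ to 3′ on the gene's strand) are printed, with capitals for GC boxes, the letters GGGCGG or their reverse complement CCGCCC. The windows are chr1:36068150-36068399 on the plus strand for *Hs6st1*, and chr2:166155684-166155933 and chr2:166155286-166155535 on the minus strand for the 2 starts of *Sulf2*. The 30 bases after the first *Sulf2* start were not found in an annotated transcript of the gene. Those after the second *Sulf2* start and the *Hs6st1* start were found.
Hs6st1: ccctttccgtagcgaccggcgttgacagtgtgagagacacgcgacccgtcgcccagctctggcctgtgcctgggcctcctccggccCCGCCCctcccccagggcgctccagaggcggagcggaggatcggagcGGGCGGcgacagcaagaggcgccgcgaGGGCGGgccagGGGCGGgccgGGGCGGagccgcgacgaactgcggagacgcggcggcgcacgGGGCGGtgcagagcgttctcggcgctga
Sulf2 start 1: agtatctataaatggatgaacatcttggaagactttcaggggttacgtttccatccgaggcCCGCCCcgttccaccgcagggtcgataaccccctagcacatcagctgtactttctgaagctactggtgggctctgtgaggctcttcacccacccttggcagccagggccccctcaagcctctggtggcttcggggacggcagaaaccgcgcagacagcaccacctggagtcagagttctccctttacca
Sulf2 start 2: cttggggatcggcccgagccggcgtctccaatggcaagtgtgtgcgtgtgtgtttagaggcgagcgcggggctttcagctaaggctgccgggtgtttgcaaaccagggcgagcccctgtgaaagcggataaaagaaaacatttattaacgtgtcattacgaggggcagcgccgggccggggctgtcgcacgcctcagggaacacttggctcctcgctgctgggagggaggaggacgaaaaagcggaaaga

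The *Hs6st1* window held 6 GC boxes, from -164 to -28 relative to the start, and was 76.4% G and C. The *Sulf2* windows held 1 and 0 and were 57.2% and 60.0% G and C, against a median of 52.4% over all 32851 promoters. A GC box, on either strand, was present in 32.7% of all promoters. Windows were found for 7 members, 9 in all. The bases after the *Hs2st1* start and the second *Hs6st2* start were also not found in an annotated transcript. *Ndst2* and *Glce* held 3 boxes each and *Hs2st1* held 1, whereas the window of *Ext2* and both windows of *Hs6st2* held 0. The letters CCGGAAGT, an ETS motif, were in 2.88% of all promoters, the shorter CCGGAA within it in 12.0%, and the AP-1 letters TGANTCA in 6.75%. None of these 3 was in any of the 9 windows, searched on both strands, which says only that the letters are not in these windows. *Ext1*, *Ndst1* and *Sulf1* had no window.

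Set beside all loci, the enzymes stood out in no comparison. For rFGF1WT against HG, limma called 0 of 9 members at an adjusted p under 0.05 with at least a 2-fold change, against 1.01% of all tested loci, and 0 of 9 at that adjusted p alone, against 6.19%. At an unadjusted p under 0.05 there were 3, with *Hs6st1* and *Sulf2* higher and *Ext1* lower, against 24.8%. The libraries of the groups did not overlap for 5 members, 2 higher and 3 lower, against 58.2%. The median log2 fold change of the 9 was -0.07, beside -0.04 over all loci.

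For rFGF1ΔHBS against HG, limma called 0 of 9 by the first rule, against 0.899% of loci, and 0 of 9 by the adjusted p alone, against 6.26%. At an unadjusted p under 0.05 there were 2, *Hs2st1* and *Sulf2*, both higher, against 24.9%. Libraries did not overlap for 5 members, 3 higher and 2 lower, against 57.3%. The median was 0.04, beside -0.04 over all loci. The comparisons with HG share its 2 libraries, so their members' values are not independent of each other.

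For rFGF1ΔHBS against rFGF1WT, limma called 0 of 9 members, against 0.350% of loci, and 0 of 9 by the adjusted p alone, against 0.549%. At an unadjusted p under 0.05 there was 1, *Hs2st1*, against 4.87%. Libraries did not overlap for 4 members, with *Ext1*, *Glce* and *Hs2st1* higher and *Hs6st1* lower with rFGF1ΔHBS, against 34.5%. In each of the 3 comparisons the 95% interval lay within a 2-fold change for 7 of 9 members (77.8%), beside 79.5%, 79.6% and 82.4% of all tested loci. The exceptions were *Ndst1* and *Hs6st2*, whose intervals reached past 2-fold. With 2 libraries a group, an exact permutation test of a single gene could not go below p = 0.333. The limma p-values rest instead on a modelled spread. It combines each gene's own spread over the 3 groups (3 residual degrees of freedom) with a spread shared across loci (1.365 prior degrees of freedom).

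**Figure D3:**
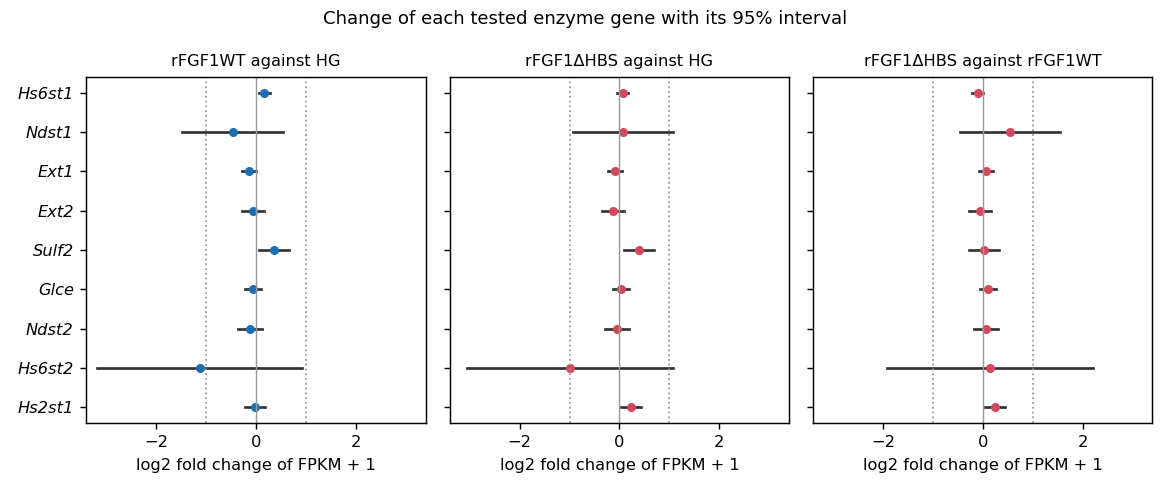
Log2 fold change of FPKM + 1 (points) with its 95% interval (bars) for the 9 tested enzymes, in 3 panels for rFGF1WT against HG, rFGF1ΔHBS against HG and rFGF1ΔHBS against rFGF1WT, with dotted lines at a 2-fold change. Intervals of 7 members lie between the dotted lines in every panel, and those of *Ndst1* and *Hs6st2* cross them.

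The genes around these enzymes in the pathway gave few changes, and those mostly in core proteins. Among the linker enzymes, 1 of 5 tested fell with rFGF1WT, against 6.19% of all tested loci that passed in either direction, and 0 of 5 with rFGF1ΔHBS, against 6.26%. Limma gave 1 and 0 at an unadjusted p under 0.05, against 24.8% and 24.9% of all tested loci. Between the proteins it gave 2, *Fam20b* and *Pxylp1*, against 4.87%. The gene that fell with rFGF1WT was *Fam20b*, the kinase that phosphorylates linker xylose. *Fam20b* measured 13.8 and 12.4 FPKM in HG, 9.53 and 8.98 with rFGF1WT, and 12.7 and 13.2 with rFGF1ΔHBS. Its log2 fold change was -0.46 with rFGF1WT (adjusted p = 0.0473 by limma) and -0.01 with rFGF1ΔHBS (adjusted p = 0.945), and the difference between the proteins, 0.44, did not pass (adjusted p = 0.272). Of the other polymerases and sulfotransferases 3 of 13 were tested, of the genes for sulfate donor and UDP-sugar supply 7 of 11, and of the degrading enzymes 6 of 10, and 0 passed in any comparison by limma. At an unadjusted p under 0.05 these 3 lists held 0 genes with rFGF1WT, 3 with rFGF1ΔHBS and 0 between the proteins. The shares of all tested loci were 24.8%, 24.9% and 4.87%.

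The core proteins carry the chains that the enzymes build, and 3 of 10 tested changed with either protein, against 6.19% and 6.26% of all tested loci. At an unadjusted p under 0.05 there were 5 with each, 1 higher and 4 lower, against 24.8% and 24.9%. The 2 that did not pass adjustment were the glypicans *Gpc4*, with log2 fold changes of -0.68 and -0.61 (adjusted p = 0.111 and 0.134 by limma), and *Gpc6*, with -0.23 and -0.27 (adjusted p = 0.0987 and 0.0691). *Sdc4*, a transmembrane syndecan, measured 77.5 and 84.0 FPKM in HG, 123.1 and 114.7 with rFGF1WT, and 114.5 and 122.3 with rFGF1ΔHBS. It rose with both proteins, by 0.55 (adjusted p = 0.0291) and 0.55 (adjusted p = 0.0302 by limma). *Sdc3*, another syndecan, measured 5.30 and 5.37 FPKM in HG, 2.98 and 3.18 with rFGF1WT, and 2.79 and 3.07 with rFGF1ΔHBS. *Sdc3* fell, at -0.63 with rFGF1WT (adjusted p = 0.0236) and -0.69 with rFGF1ΔHBS (adjusted p = 0.0213), where *Sdc4* rose. *Gpc1*, a glypican anchored by a lipid, measured 25.9 and 25.2 FPKM in HG, 17.3 and 17.1 with rFGF1WT, and 14.7 and 16.4 with rFGF1ΔHBS. It fell with both, at -0.55 (adjusted p = 0.0276) and -0.69 (adjusted p = 0.0204). The matrix cores *Hspg2*, *Agrn* and *Col18a1* did not pass, with log2 fold changes between -0.14 and 0.03. Between the proteins 0 of 10 cores passed by limma, against 0.549% of all tested loci, and 0 had an unadjusted p under 0.05, against 4.87%.

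Chondroitin sulfate synthesis shares the linker and the sulfate donor, and 1 of 11 tested genes fell with each protein, close to the 6.19% and 6.26% of all tested loci that passed. There were 2 of 11 with each at an unadjusted p under 0.05, against 24.8% and 24.9%. *Chst15*, which adds sulfate to chondroitin sulfate A, measured 9.42 and 8.91 FPKM in HG, 6.08 and 6.01 with rFGF1WT, and 6.23 and 6.21 with rFGF1ΔHBS. Its symbol was at 2 loci, and only the locus with the higher mean FPKM was used. The log2 fold change of this *Chst15* locus was -0.53 with rFGF1WT (adjusted p = 0.0216 by limma) and -0.49 with rFGF1ΔHBS (adjusted p = 0.0244). *Fam20b*, the 3 core proteins and *Chst15* all stayed under a 2-fold change. With any 1 library left out they did not pass, except *Gpc1* with rFGF1ΔHBS in 1 of 6 such fits, and over all alternatives their adjusted p ranged from 0.0162 to 0.152.

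**Figure D4:**
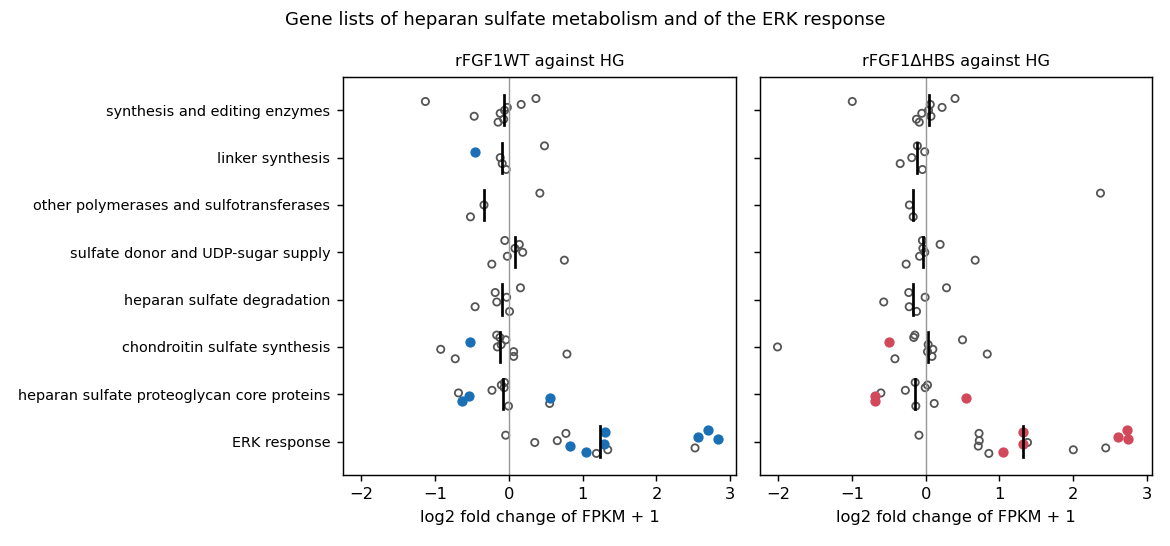
Log2 fold change of FPKM + 1 against HG for each tested gene (circles) of 8 lists, for rFGF1WT (left) and rFGF1ΔHBS (right), with filled circles for an adjusted p under 0.05 and a vertical bar for the list's median. The enzymes hold no filled circle, the core proteins hold 3 in each panel, and the ERK response holds 7 and 6.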

How the data were processed

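The authors made poly(A) libraries from MPCs, sequenced paired ends and deposited 1 table of FPKM per locus, for which their methods name edgeR. Their processing notes list Bowtie 0.12.2, HISAT2 2.0, StringTie 1.3.0 and the build mm8, without roles. The table gives no positions, and 99.6% of its 78903 Ensembl transcripts were found in GENCODE M21 (GRCm38), from which positions were taken.

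Samples were grouped by their labels. FPKM are not counts, so log2(FPKM + 1) of all 6 libraries was fitted with limma 3.58.1 (R 4.3.3; lmFit, contrasts, eBayes with a trend) over loci whose mean reached 1 FPKM. The test was two-sided with 3 residual degrees of freedom and Benjamini-Hochberg adjustment over 10562 loci, at 0.05 with and without a 2-fold limit. Promoter windows came from RefSeq. Python 3.11.15, pandas 2.3.3 and matplotlib 3.10.9 were used, and the fit was tested on simulated data. Members and lists were chosen with earlier results of these data known. All members were named, as were list genes past the threshold and a few of the more abundant examples. Alternatives changed the pseudocount, filter, scaling, libraries, empirical Bayes step, replicate block and call rule. Depth is unknown, and 2 libraries a group limit precision. The results of 2 single genes of the lists are not reported here.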

Additional observations from a re-analysis of the deposited data

How the results depend on the processing

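With another pseudocount (0.1), no filter or a mean FPKM of at least 5, loci above 0 only, median-ratio scaling, quantile normalization, the 4 compared libraries, the replicate block, robust empirical Bayes, each library left out in turn and no 2-fold limit, 0 enzymes were called in each of the 3 comparisons. Replicate numbers did not pair the samples (r of deviations -0.02, 0.10 and -0.05); with the replicate block 0 enzymes passed, and the loci called fell from 107, 95 and 37 to 39, 36 and 6 for rFGF1WT against HG, rFGF1ΔHBS against HG and rFGF1ΔHBS against rFGF1WT. Over the alternatives that kept the 2-fold limit the loci called ranged from 39 to 155, 36 to 151 and 6 to 103, and without that limit they were 654, 661 and 58. Single enzymes, none of them called, changed direction as follows, and the cause was not tested. For rFGF1WT against HG, *Hs2st1* was 0.0131 with median-ratio scaling and 0.0258 with quantile normalization. With 1 library left out, log2 fold changes against HG for rFGF1WT ranged from -0.15 to 0.0043 for *Ext2*, -1.001 to 0.0574 for *Ndst1* and -0.10 to 0.0535 for *Hs2st1*, and for rFGF1ΔHBS from -0.0687 to 0.21 for *Ndst1*, -0.12 to 0.0176 for *Ndst2* and -0.0069 to 0.0858 for *Glce*. Between the proteins they ranged from -0.72 to 0.99 for *Hs6st2*, -0.10 to 0.17 for *Sulf2*, -0.12 to 0.0125 for *Ext2* and -0.0026 to 0.14 for *Ndst2*. When a group was left with 1 library, that library was assumed to vary like the other groups. *Fam20b*, *Chst15*, *Sdc3*, *Sdc4* and *Gpc1* did not pass with only the 4 compared libraries or with the replicate block, and without the filter on low FPKM *Fam20b*, *Sdc4* with either protein and *Sdc3* with rFGF1WT did not pass.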

Other observations

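Some relatives of the enzymes, chosen after their values were seen, differed between groups or libraries. *Ndst3*, another N-deacetylase/N-sulfotransferase, measured 0.244 and 0.248 FPKM in HG, 1.09 and 1.23 with rFGF1WT, and 0.892 and 1.12 with rFGF1ΔHBS, without overlap. Its mean was under the filter, and with no filter its adjusted p by limma was 0.0538 and 0.0691. *Hs3st6*, a 3-O-sulfotransferase, ran the opposite way, at 0.723 and 0.904 FPKM in HG, 0.107 and 0.189 with rFGF1WT, and 0.217 and 0.199 with rFGF1ΔHBS (adjusted p with no filter 0.0427 and 0.0525). At these levels differences on the log2(FPKM + 1) scale are understated.

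As with *Hs6st2*, individual low libraries set the group means of further sulfotransferases. *Hs3st1*, which adds the 3-O-sulfate of antithrombin-binding chains, measured 5.52 and 0.125 FPKM in HG, 9.94 and 0.198 with rFGF1WT, and 12.2 and 13.9 with rFGF1ΔHBS, and did not pass (adjusted p = 0.883 and 0.374 by limma). *Chst12*, a chondroitin 4-O-sulfotransferase, measured 13.9 and 16.1 FPKM in HG, 12.2 and 14.6 with rFGF1WT, and 11.6 and 0.253 with rFGF1ΔHBS. The low *Hs3st1* libraries were the second of HG and the second of rFGF1WT, and the low *Chst12* library was the second of rFGF1ΔHBS. The cause of these low values was not tested.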
